A study of Mus musculus with 6 samples.

Results

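Interferons tell cells that a virus or an immune attack is near. They bind receptors at the cell surface, the receptors activate JAK kinases and STAT transcription factors, and a shared set of interferon-stimulated genes is switched on. In tumors, CXCL9 and CXCL10 are the best known of these products, because they attract T cells and natural killer cells that carry the receptor CXCR3. The 39 genes described here are Cxcl9, Cxcl10 and 37 other interferon-stimulated genes, found by their symbols among the 53801 genes of a deposited count table. They include transcription factors, RNA sensors, the ISG15 system, antiviral effectors and GTPases, and 38 of the 39 had enough counts to be tested. The members were taken by name, and no value of the table entered the rule, but they were drawn up with earlier results of these data known.

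RNA was sequenced from PDPN+PDGFRα+ stromal cells, sorted as CD45-CD31- cells from MO5 tumors, a mouse melanoma made with B16-OVA cells. In ADAM12-DTR mice (labelled genotype DTR+, called DTR), a BAC transgene expresses the diphtheria toxin receptor (DTR) under the Adam12 promoter, so that diphtheria toxin (DT) kills cells in which that promoter is active. The other group, Ctrl (labelled DTR-), were sex-matched littermates without the transgene, and adult C57Bl/6 mice of both groups received DT. There were 3 libraries per group, so the comparison asked whether interferon-stimulated genes of the sorted stroma differed after the depletion of ADAM12+ cells. The labels do not say that each library came from a separate animal, and p-values measure only the spread between these libraries.

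Between 22339635 and 34271929 reads were counted per library, and 3 counts, the smallest number treated as detected, were worth 0.0875 to 0.134 CPM (a gene's counts relative to its library's total) before scaling. This floor covers counting error only, and the CPM given from here on were scaled with TMM factors. Adam12 checked the labels. It had 216, 181 and 175 CPM in Ctrl replicates 1 to 3 and 165, 151 and 112 CPM in DTR replicates 1 to 3, so every DTR library was below every Ctrl library, but the adjusted p of 0.602 (edgeR's quasi-likelihood F test, Benjamini-Hochberg adjusted) was not under 0.05. The sort markers were present in every library, Pdgfra at 42.6 CPM or more and Pdpn at 46.0 CPM or more. Melanocyte genes were also counted in every library of these cells, which the labels describe as stromal: the 10 listed summed to between 15983 and 19983 CPM, and 10 fibroblast genes to between 5239 and 14337 CPM. In bulk RNA of such a sort, fewer cells of a type and less RNA per cell cannot be told apart.

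Many promoters of this class carry the interferon-stimulated response element (ISRE), bound by complexes that hold STAT2 and IRF9, or the gamma-activated site (GAS), bound by STAT dimers. Promoter windows from RefSeq (GRCm38.p6), running from 250 bases before to 50 bases after a gene's start, were found for 30 of the 39 members. The ISRE core GAAANNGAAA was searched on both strands, and the GAS core TTCNNNGAA, which reads the same on both strands, was searched once. The ISRE core was present in 17 of the 30 members (56.7%), against 3.99% of all 27025 genes with a window. The GAS core was present in 8 members (26.7%), against 9.55% of all genes, and both cores in 5 members (16.7%), against 0.614%. A match is only a match of letters in the window. Among 34 matched interferon-stimulated genes outside the members, the ISRE core was found in 17 (50%) and the GAS core in 8 (23.5%).

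The stretches below show what these promoters look like, and were chosen, after the values of their genes were seen, to show different numbers and orientations of the cores. The members with the lowest log2 fold changes, Usp18 and Bst2, are not among them. Each is printed 5′ to 3′ along the gene, with the cores in capitals. The Cxcl10 stretch lies at chr5:92349063-92349132 on the minus strand, with its core starting 213 bases before the gene's start. The Isg15 stretch (chr4:156200845-156200926, minus strand) holds 3 overlapping cores in a run of 22 bases. The Ifit1 (chr19:34640755-34640843) and Ifit3 (chr19:34583343-34583446) stretches, both on the plus strand, hold 2 cores each. Read on the gene's strand, the ISRE appears there as its reverse complement, TTTC before TTTC. Stat2 (chr10:128270248-128270315), Gbp2 (chr3:142620574-142620643) and Gbp3 (chr3:142559969-142560044), also on the plus strand, have it in the same orientation. The Irf1 stretch (chr11:53769894-53769962, plus strand) holds a GAS core and no ISRE core.
Cxcl10: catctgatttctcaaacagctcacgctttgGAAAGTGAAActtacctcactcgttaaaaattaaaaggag
Isg15: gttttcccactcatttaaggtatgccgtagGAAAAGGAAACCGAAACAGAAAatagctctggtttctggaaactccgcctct
Ifit1: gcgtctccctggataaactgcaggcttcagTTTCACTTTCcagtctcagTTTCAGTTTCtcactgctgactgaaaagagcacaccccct
Ifit3: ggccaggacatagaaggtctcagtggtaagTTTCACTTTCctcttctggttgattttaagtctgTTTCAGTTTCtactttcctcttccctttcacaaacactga
Stat2: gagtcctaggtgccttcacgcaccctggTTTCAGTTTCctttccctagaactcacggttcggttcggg
Gbp2: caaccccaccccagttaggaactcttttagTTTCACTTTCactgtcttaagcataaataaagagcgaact
Gbp3: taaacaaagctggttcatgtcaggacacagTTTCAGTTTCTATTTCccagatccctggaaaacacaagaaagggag
Irf1: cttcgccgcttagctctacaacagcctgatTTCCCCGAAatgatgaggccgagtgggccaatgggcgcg

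None of the 38 members tested had an adjusted p under 0.05 (edgeR's quasi-likelihood F test, Benjamini-Hochberg adjusted over 15133 genes), and neither had any other gene (0 of 15133, 0%). At an unadjusted p under 0.05, 1 member was higher in DTR, Cxcl10, and 0 were lower, where 3.81% of all genes were higher and 4.11% lower. DESeq2's Wald test also called 0 members, while it called 31 of the 20519 genes to which it gave an adjusted p (0.151%). Cxcl10 was also the only member for which every DTR library was above every Ctrl library, which held for 6.32% of all genes. For 0 members was every DTR library below every Ctrl library (8.18% of all genes). The log2 fold change, DTR over Ctrl, was above 0 for 33 of the 38 members, against 49.6% of all genes. Its median was 0.28 over the members and -0.0029 over all genes tested.

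The members shared an order of the libraries. DTR replicate 3 was the highest of the 6 libraries for 36 of the 38 members, against 20.9% of all genes. Ctrl replicate 1 was the lowest for 29 members, against 17.8% of all genes, and both held at once for 28 members, against 4.88% of all genes. Between these extremes, the other 4 libraries lay close together and the other way round. The mean of DTR replicates 1 and 2 was below the mean of Ctrl replicates 2 and 3 for 32 of 38 members (49.3% of all genes). The members' median ratio of these means was 0.890, and over all genes tested it was 1.00. DTR replicate 3 had a median of 2.13 times the CPM of Ctrl replicate 1 over the members, with a range from 1.27-fold for Oas1a to 5.31-fold for Iigp1, and 0.998 times over all genes tested. On the log2 scale, the members' median deviation from their own mean was 0.64 in DTR replicate 3 and -0.43 in Ctrl replicate 1, and it lay between -0.14 and 0.06 in the other 4 libraries.

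**Figure D1:**
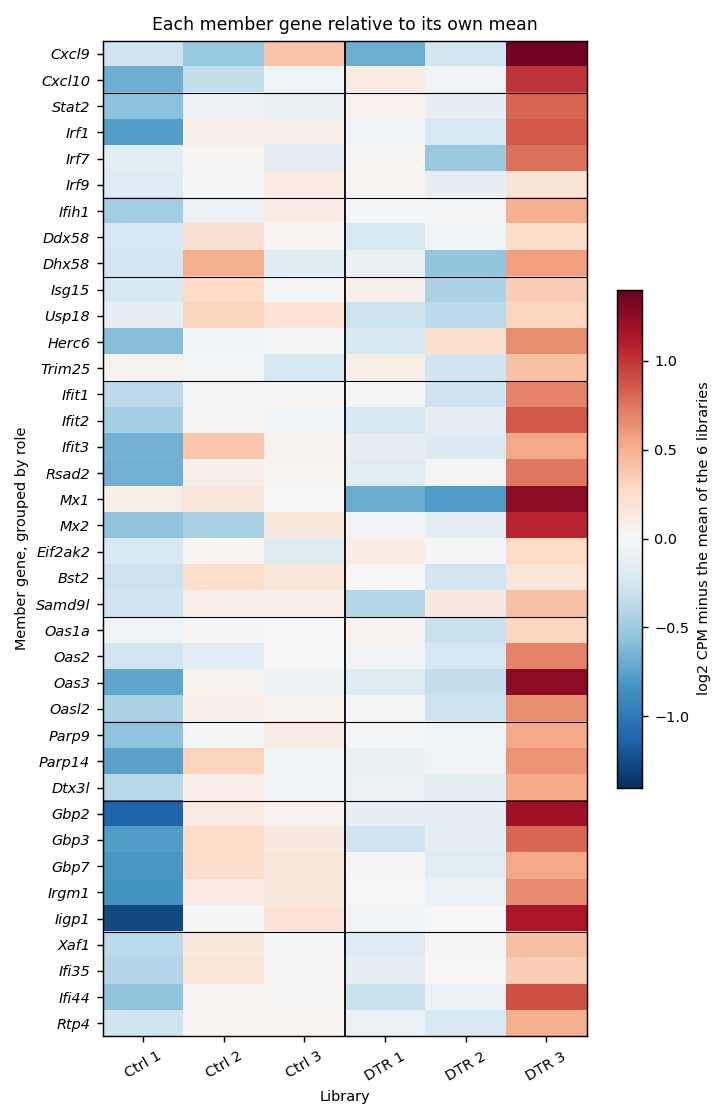
Heat map of the 38 tested members (rows, grouped by role) in the 6 libraries (columns), coloured by log2 CPM minus the gene's mean over the 6 libraries. The column of DTR replicate 3 is red for all 38 members and that of Ctrl replicate 1 is blue for 36, with pale colours in the other 4 columns.

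The chemokine ligands Cxcl9 and Cxcl10 are neighbours on chromosome 5 of GRCm38, Cxcl9 from 92321347 to 92328079 and Cxcl10 from 92346638 to 92348889 (GENCODE M21), and both signal through CXCR3. Cxcl10 had 54.6, 69.5 and 84.0 CPM in Ctrl replicates 1 to 3 and 95.04, 85.5 and 176 CPM in DTR replicates 1 to 3. The lowest DTR library was only just above the highest Ctrl library, and DTR replicate 3 stood 1.86-fold above the next. The means were 69.4 ± 14.7 CPM in Ctrl and 119 ± 49.96 in DTR (SD, n = 3), a log2 fold change of 0.78 (standard error, SE, 0.281). The test gave an unadjusted p of 0.0247 and an adjusted p of 0.602 in edgeR's quasi-likelihood test, and a two-sided exact permutation test gave p = 0.1, the smallest that 3 against 3 allow. With DTR replicate 3 left out, Cxcl10 stood at 0.38 on the log2 scale, and its groups still did not overlap. Its unadjusted p was no longer under 0.05 with robust moderation (0.0607) or without Ctrl replicate 1 (0.0768), Ctrl replicate 2 (0.0624) or DTR replicate 3 (0.0585) in edgeR's test, and its adjusted p ran from 0.264 to 0.852 over 18 alternatives. Cxcl9 had 38.6, 32.4 and 61.7 CPM in Ctrl and 29.1, 39.2 and 120 CPM in DTR, so that its groups overlapped and DTR replicate 1 was the lowest library. Its log2 fold change was 0.50 (SE 0.506, adjusted p = 0.802), and without DTR replicate 3 it was -0.38. Cxcl11, the third CXCR3 ligand and no member, stayed at or below 0.925 CPM in every library, and Cxcr3 ran from 3.09 to 4.31 CPM.

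**Figure D2:**
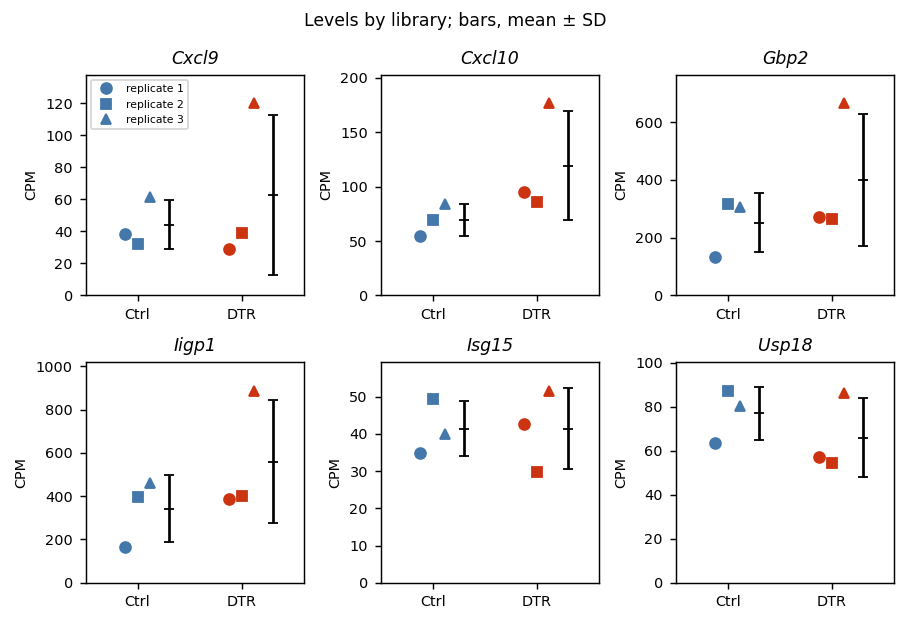
CPM of 6 members in each library, with circles, squares and triangles for replicates 1, 2 and 3 of Ctrl (blue) and DTR (red) and black bars for the mean ± SD of each group. For Cxcl10 every red point is above every blue one, for Cxcl9, Gbp2 and Iigp1 the red triangle alone stands high, and for Isg15 and Usp18 the groups intermingle.

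Among the 4 transcription factors, Stat2, a factor of the type I interferon response, had the highest log2 fold change, 0.54 (SE 0.250, adjusted p = 0.630). It had 43.2, 60.9 and 59.9 CPM in Ctrl and 66.9, 59.3 and 113 CPM in DTR. DTR replicate 2 lay below 2 of the Ctrl libraries, so the groups overlapped. With DTR replicate 3 left out, Stat2 stood at 0.21. Irf1, an activator induced strongly by interferon-γ, had 68.3, 123 and 123 CPM in Ctrl and 113, 101 and 212 CPM in DTR. Both other DTR libraries were below both other Ctrl libraries, and the log2 fold change was 0.43, or 0.03 without DTR replicate 3. Irf7, which amplifies type I interferon production, had a log2 fold change of 0.28. Irf9, the DNA-binding partner of STAT2, was the lowest of the group at 0.06. It varied least, with 41.9, 46.9 and 51.3 CPM in Ctrl and 48.8, 43.8 and 53.8 CPM in DTR.

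The 3 RNA sensors detect viral double-stranded RNA in the cytoplasm. Ifih1, which encodes MDA5, had 61.5, 80.9 and 92.03 CPM in Ctrl and 85.2, 84.6 and 121 CPM in DTR, a log2 fold change of 0.31 (SE 0.188, adjusted p = 0.678). DTR replicates 1 and 2 lay inside the Ctrl range. Ddx58, which encodes RIG-I, had a log2 fold change of -0.00048, with 129 to 176 CPM in Ctrl and 132 to 182 CPM in DTR. Dhx58, their regulator LGP2, was equally level at -0.0077, with 23.9, 40.7 and 25.7 CPM in Ctrl and 27.1, 19.9 and 43.0 CPM in DTR. Its sign changed with the scaling, to 0.0046 with RLE size factors and 0.03 with library size alone.

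The ISG15 system attaches a ubiquitin-like protein to targets and takes it off again. Isg15, the modifier itself, had 34.9, 49.4 and 39.9 CPM in Ctrl and 42.7, 29.9 and 51.6 CPM in DTR, with a mean of 41.4 in both groups. Its promoter, with 3 overlapping ISRE cores, holds the densest match printed above, while its 1.48-fold step from Ctrl replicate 1 to DTR replicate 3 was below the members' median. Usp18, the protease that removes ISG15 and damps type I interferon signalling, had the lowest log2 fold change of all members, -0.23 (SE 0.197, adjusted p = 0.768). It had 63.8, 87.3 and 80.3 CPM in Ctrl and 57.1, 54.3 and 86.5 CPM in DTR, and was one of only 2 members for which DTR replicate 3 was not the highest library. Herc6, the ligase that attaches ISG15 in mice, was the highest of this group at 0.45 (SE 0.235), with 55.6, 82.0 and 83.1 CPM in Ctrl and 71.9, 98.4 and 132 CPM in DTR. DTR replicate 1 kept its groups from separating, and with DTR replicate 3 left out it stood at 0.21. Another gene on the same strand, Gm45193, covers 53.8% of the span of Herc6, so its counts may miss reads. Trim25, a ligase that activates RIG-I, had a log2 fold change of 0.17.

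Of the 9 antiviral effectors, 8 had a log2 fold change above 0. Mx2, a dynamin-like GTPase, had the highest at 0.66 (SE 0.349, adjusted p = 0.652). It had 8.49, 9.16 and 13.8 CPM in Ctrl and 12.1, 11.5 and 26.3 CPM in DTR, and the groups overlapped through Ctrl replicate 3. With DTR replicate 3 left out, Mx2 stood at 0.17 on the log2 scale. Its neighbour Mx1 had 5.37 and 5.02 CPM in DTR replicates 1 and 2, below all Ctrl libraries (8.67 to 9.75 CPM), and 20.8 CPM in DTR replicate 3. The 2 genes thus shared the high library but not the order of the others. Bst2, which encodes tetherin, a protein that holds budding virus at the cell surface, was the lowest at -0.07 (SE 0.167). It had 71.8, 105 and 98.9 CPM in Ctrl and 89.2, 73.5 and 100 CPM in DTR, where DTR replicate 3 was below Ctrl replicate 2. Eif2ak2, the kinase PKR, which stops translation when it meets double-stranded RNA, had a log2 fold change of 0.24 with the smallest standard error of the members, 0.111. Its unadjusted p was 0.0581, and with library size alone as the scaling its groups no longer overlapped. The IFIT genes had log2 fold changes of 0.30 for Ifit1, 0.40 for Ifit2 and 0.13 for Ifit3. Ifit3 shares 51.2% of the 50-base stretches of its transcripts with other genes, mostly Ifit3b, so reads of both genes cannot be fully told apart. Rsad2 (viperin) stood at 0.40 and Samd9l, a brake on cell growth and translation, at 0.11.

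The OAS proteins make the messenger 2′-5′ oligoadenylate, which activates RNase L. Oas3 had the widest step of the family. It had 9.59, 16.4 and 15.1 CPM in Ctrl and 14.1, 12.5 and 37.7 CPM in DTR, a log2 fold change of 0.64 (SE 0.424, adjusted p = 0.699). DTR replicate 3 stood 2.30-fold above the next library, and without it the log2 fold change was -0.04. Oas1a was almost level, with 27.0, 28.3 and 27.8 CPM in Ctrl and 29.0, 22.6 and 34.4 CPM in DTR and a log2 fold change of 0.05. It shares 57.6% of its 50-base stretches with other genes, mostly Oas1g. Oas2 and Oasl2 stood at 0.33 and 0.25.

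Parp9, Parp14 and Dtx3l, which encode ADP-ribosyltransferases and the ubiquitin ligase partner of PARP9, lie together on chromosome 16. Parp9 was the highest, with 70.3, 101 and 111 CPM in Ctrl, 103, 101 and 150 CPM in DTR and a log2 fold change of 0.32 (SE 0.207). Dtx3l was the lowest, with 87.4, 122 and 111 CPM in Ctrl, 107, 104 and 165 CPM in DTR and a log2 fold change of 0.23. In both, DTR replicates 1 and 2 were within the Ctrl range. Parp14 had a log2 fold change of 0.30.

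The guanylate-binding proteins and immunity-related GTPases coat vacuoles that hold parasites or bacteria, and are induced chiefly by interferon-γ. For all 5 tested, Ctrl replicate 1 was lowest and DTR replicate 3 highest, with a median ratio of 2.99 between them. Iigp1 had 167, 396 and 461 CPM in Ctrl and 389, 402 and 888 CPM in DTR, a log2 fold change of 0.71 (SE 0.426, adjusted p = 0.675), or 0.21 without DTR replicate 3. The middle 4 libraries differed by at most 1.19-fold, while the step to Ctrl replicate 1 was 2.32-fold and that to DTR replicate 3 was 1.93-fold. Gbp2 was similar, with 134, 316 and 305 CPM in Ctrl and 270, 265 and 665 CPM in DTR and a log2 fold change of 0.67, which was 0.09 without DTR replicate 3. Gbp7 was the lowest of the group at 0.23 (SE 0.285), with 127, 266 and 248 CPM in Ctrl and 226, 200 and 325 CPM in DTR. Gm43802 overlaps 11.3% of its exon bases on the same strand, so its counts may miss reads too. Gbp3 and Irgm1 stood at 0.28 and 0.36. Within this set the groups overlapped for every gene.

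Igtp, the remaining immunity-related GTPase, was listed at 0 counts in all 6 libraries. On GRCm38, 99.2% of its span lies inside Irgm2 on the same strand, and Irgm2 had counts in every library (99.8 to 312 CPM). Of 640 protein-coding genes with at least 99% of their span inside other genes of the same strand, 92.3% were listed at 0, against 23.8% of 17616 with no such neighbour. Gbp4, Gbp6, Gbp9, Gbp10, Ifi47 and Ifi203, all interferon-stimulated, and the factor Irf8 were also at 0 and lay inside other genes to at least 99%. No statement on the expression of Igtp can be drawn from its 0.

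The last 4 members have mixed roles. Ifi44, whose product forms part of the antiviral response, had the highest log2 fold change of these at 0.41 (SE 0.326), with 9.22, 13.8 and 13.8 CPM in Ctrl and 10.95, 12.8 and 25.4 CPM in DTR. Ifi35 was the lowest at 0.15, with 33.6, 50.4 and 45.2 CPM in Ctrl and 41.3, 44.8 and 56.9 CPM in DTR. Xaf1, which encodes a pro-apoptotic antagonist of XIAP, and Rtp4, a receptor transporter, stood at 0.17 and 0.16. Gm45338 covers 42.4% of the span of Rtp4 on the same strand, so the counts of Rtp4 may miss reads as those of Herc6 may. In each of the 4, Ctrl replicate 1 was lowest and DTR replicate 3 highest.

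**Figure D3:**
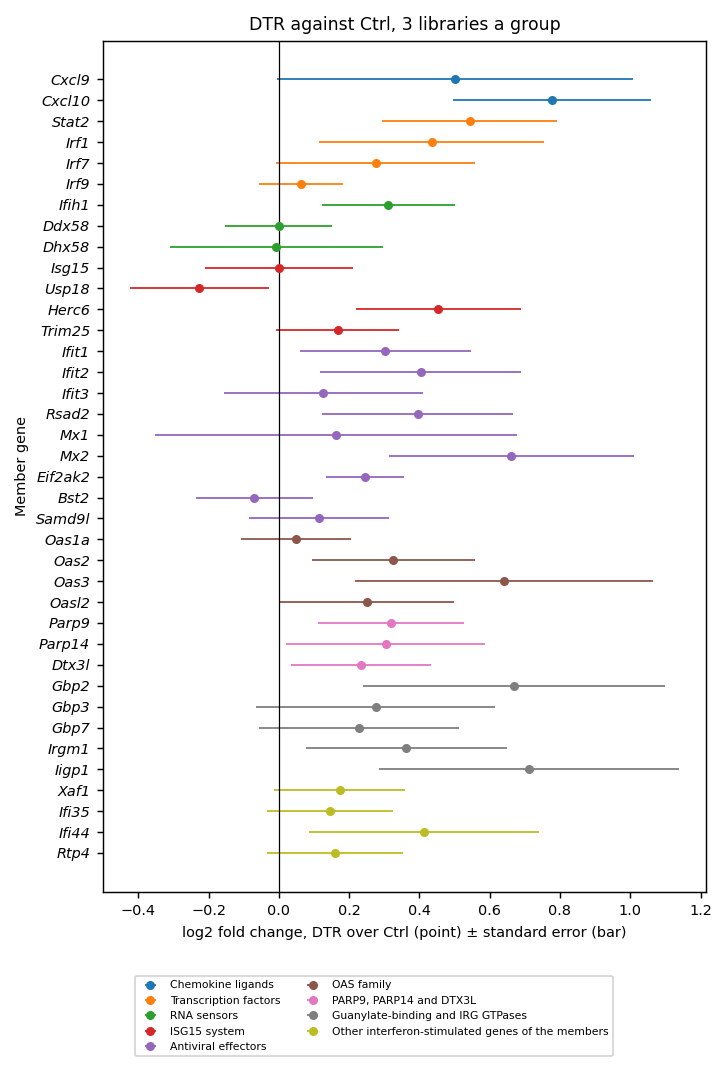
Log2 fold change of each tested member, DTR over Ctrl, in edgeR's fit, with its standard error as the bar and colours for the role groups. Values run from -0.23 for Usp18 to 0.78 for Cxcl10, and 33 of 38 points lie right of 0.

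Leaving out libraries showed how far the members' direction rested on the 2 extreme ones. Without DTR replicate 3 the members' median log2 fold change was -0.01, and 13 of 38 members stayed above 0, where 50% of all genes did. Without Ctrl replicate 1 it was 0.15, with 29 members above 0 (50.2% of all genes). Without any one of the other 4 libraries, the median lay between 0.34 and 0.42. With both extremes left out, a choice made after seeing these values, the median was -0.17, and 6 members were above 0 (50.6% of all genes). Both remaining DTR libraries were then below both remaining Ctrl libraries for 19 members, against 19.4% of all genes, and 5 members, Mx1, Gbp3, Usp18, Bst2 and Ifit3, had an unadjusted p under 0.05 and were lower in DTR (2.93% of all genes). No member had an adjusted p under 0.05 (lowest 0.357, for Usp18, in edgeR's quasi-likelihood test). Leaving out the highest DTR and the lowest Ctrl library lowers such differences by its own construction, so this reversal is not independent of the choice. Cxcl10 was an exception in direction, with a log2 fold change of 0.23.

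**Figure D4:**
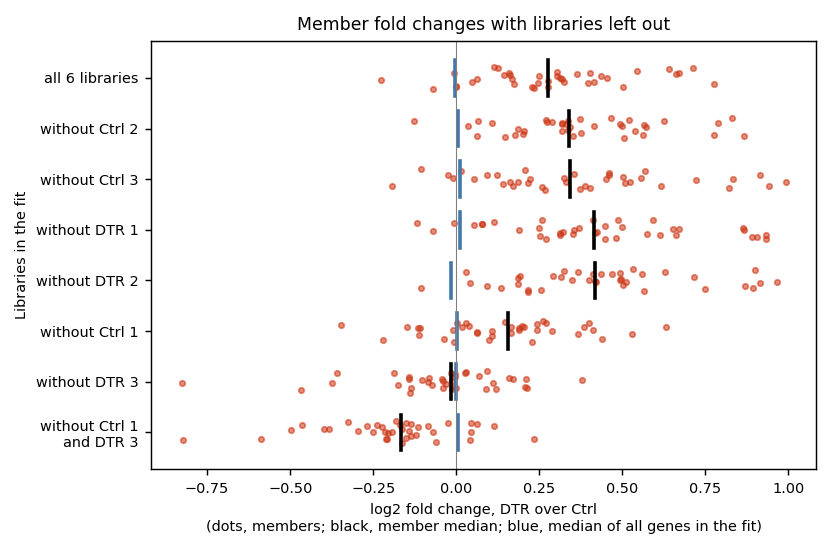
Log2 fold changes, DTR over Ctrl, of the 38 tested members (red dots) in fits of all 6 libraries, with each library left out, and with the 2 extremes left out. The black bar, the members' median, moves from 0.28 to -0.01 without DTR replicate 3 and to -0.17 without both, while the blue bar, the median of all genes in the fit, stays between -0.02 and 0.01.

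The members were also described by the cores in their promoter windows. The 12 tested members with an ISRE core alone had a median step of 2.64-fold from Ctrl replicate 1 to DTR replicate 3 (range 1.41 to 4.97). For the 3 with a GAS core alone, Irf1, Ifit2 and Ifi35, it was 2.501-fold (1.69 to 3.10). The 4 with both, Eif2ak2, Bst2, Oas1a and Gbp7, had 1.404-fold (1.27 to 2.56), and the 10 with neither in their window had 1.90-fold (1.28 to 3.11). The ranges overlap, and no test was made.

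Upstream of the members, few reads were counted on the interferons themselves. Ifng, the type II interferon, had 0.494 to 1.19 CPM over the 6 libraries with no order by group, and another gene covers 56.2% of its span on the same strand. Of the 6 other ligands listed, Ifna4 and Ifnk had 0 counts in every library, and Ifnb1, Ifne and Ifnl3 had none in at least 4 libraries and no more than 0.125 CPM in any. Ifnl2 was listed at 0, but lies inside Samd4b on the same strand over 100% of its span, so nothing can be drawn from it, as for Igtp. The sort selected against CD45+ immune cells, and interferon transcripts of the cells left out were not counted. These values do not measure interferon in the whole tumor. Interferon protein was not measured here.

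The 6 receptor genes were all tested, and none had an unadjusted p under 0.05. Ifnar1, the common type I receptor chain, had 76.5, 78.8 and 79.1 CPM in Ctrl and 81.7, 83.8 and 80.0 CPM in DTR, so every DTR library was above every Ctrl library, by a log2 fold change of 0.07 (SE 0.0777, adjusted p = 0.831). Ifngr2, the signalling chain of the interferon-γ receptor, had 66.3, 66.2 and 69.0 CPM in Ctrl and 57.4, 60.4 and 62.6 CPM in DTR, with a log2 fold change of -0.16 (SE 0.0848, adjusted p = 0.652). Ifnar2, Ifngr1, Ifnlr1 and Il10rb had log2 fold changes of 0.02, -0.04, 0.11 and -0.14, with overlapping groups. In none of the 6 was the step from Ctrl replicate 1 to DTR replicate 3 larger than 1.83-fold.

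Of the 10 kinases and factors listed, Irf8 was at 0, and the log2 fold changes of those tested ran from -0.09 for Tyk2, a receptor kinase, to 0.43 for Ciita, the activator of MHC class II genes. Ciita had 7.55, 30.3 and 24.6 CPM in Ctrl and 19.3, 21.2 and 44.0 CPM in DTR, the same order of extremes as the GTPases. Of the 4 inhibitors, Socs1, which blocks JAK kinases and is itself induced by interferon, was highest with 2.73, 3.30 and 4.67 CPM in Ctrl and 4.62, 3.96 and 12.1 CPM in DTR, a log2 fold change of 0.94 (SE 0.457, adjusted p = 0.642). Ptpn6 was lowest at -0.26 (SE 0.117, adjusted p = 0.630). Of the 7 genes of nucleic acid sensing, Zbp1, a sensor of Z-form nucleic acid, was highest at 0.32, and Tmem173, which encodes STING, lowest at -0.12. Over all 34 pathway genes listed, 27 were tested, 0 had an adjusted or unadjusted p under 0.05, and the median log2 fold change was 0.15. Every DTR library was above every Ctrl library for 4 of them, Ifnar1, Pias1, Mb21d1 and Tbk1, and below for 1, Ifngr2, where 6.32% of all genes were above and 8.18% below.

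Interferon-stimulated genes outside the members repeated the order of the libraries. Of the 48 listed, 41 were tested, and DTR replicate 3 was highest for 34 (20.9% of all genes) and Ctrl replicate 1 lowest for 21 (17.8%), with both for 19 (4.88%). Their median log2 fold change was 0.16, 32 were above 0, and 0 had an adjusted p under 0.05. At an unadjusted p under 0.05, 2 were higher, Gvin1 and Slfn5, and 0 lower, where 3.81% of all genes were higher and 4.11% lower. Gvin1, a very large GTPase, was highest at 1.38 (SE 0.496, adjusted p = 0.602), but had only 0.530, 1.05 and 0.562 CPM in Ctrl and 1.74, 1.22 and 2.64 CPM in DTR. Ifitm1, an inhibitor of virus entry, was lowest at -0.26, with 0.174 to 1.26 CPM. Some paralogs of the member GTPases had wide steps from Ctrl replicate 1 to DTR replicate 3. They were 4.86-fold for Gbp5, 7.23-fold for Gbp8 and 8.87-fold for Gbp11 (named after their values were seen). Irgm2 and Tgtp2 had narrower steps of 3.13-fold and 3.57-fold. Other genes cover 49.4% of the span of Gbp8 on the same strand, so its counts may miss reads.

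Marker genes of cell types varied between libraries, and the part of cell makeup in the members' levels was not tested. Of the 10 fibroblast genes, 7 were highest in DTR replicate 3 (20.9% of all genes), as the members were, while 0 were lowest in Ctrl replicate 1. Dcn, which encodes the matrix proteoglycan decorin, had 224, 82.2 and 177 CPM in Ctrl and 245, 136 and 600.0 CPM in DTR. DTR replicate 3 stood 2.45-fold above the next library for Dcn, 2.28-fold for Lum, which encodes lumican, and 2.45-fold for Fap, a surface protease of activated fibroblasts. These were the widest steps of the list. That library stood 1.59-fold above the next for Thy1, 1.35-fold for Pdpn, 1.21-fold for Col3a1 and 1.06-fold for Pdgfra. Col1a1, Col1a2 and Postn were highest in Ctrl replicate 1, where most members were lowest. The sum of the list came mostly from the collagen genes Col1a1, Col1a2 and Col3a1 and was high in Ctrl replicate 1, DTR replicate 1 and DTR replicate 3 (13910, 11096 and 14337 CPM) and lower in the other 3 libraries (5239 to 5786 CPM). All 10 had a log2 fold change above 0 (49.6% of all genes), with a median of 0.40, and 0 had an unadjusted p under 0.05. Melanocyte genes moved by less, from 15983 CPM in DTR replicate 3 to 19983 CPM in Ctrl replicate 2. Ptprc, which encodes CD45, the protein the sort selected against, had 16.3, 49.6 and 27.1 CPM in Ctrl and 34.6, 30.02 and 36.7 CPM in DTR, lowest in Ctrl replicate 1 as the members were but highest in Ctrl replicate 2. The 12 T and NK cell genes summed to 12.7, 62.7 and 29.4 CPM in Ctrl and 19.0, 24.9 and 29.96 CPM in DTR, and none was absent from every library. Of the 11 tested, Ctrl replicate 1 was lowest for 7 (17.8% of all genes) and DTR replicate 3 highest for 0. All 11 had a log2 fold change below 0, with a median of -0.57, the opposite sign to the members' median. Over all genes tested, 49.6% were above 0. The sort selected against CD45+ cells, so these few reads do not measure the T and NK cells of the tumors.

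Macrophage genes (10 listed) ranged from 112 to 163 CPM in Ctrl and 109 to 122 CPM in DTR, and dendritic cell genes (7 listed) from 21.1 to 28.8 CPM and 24.3 to 29.3 CPM. DTR replicate 3 had the lowest macrophage sum and the highest dendritic cell sum, each close to the next library. The 8 endothelial genes summed to 27.0 to 34.4 CPM in Ctrl and 33.2 to 100 CPM in DTR. The highest sum, in DTR replicate 3, was mostly Tek at 62.8 CPM, 4.27-fold above the next library. Kdr, which encodes a VEGF receptor, was also highest there at 11.98 CPM, 2.65-fold above the next. Vwf, which encodes von Willebrand factor, had 15.5, 15.4 and 12.1 CPM in Ctrl and 19.8, 19.9 and 21.3 CPM in DTR. Every DTR library was thus above every Ctrl library, as for 6.32% of all genes. Pecam1, which encodes CD31, the other protein the sort selected against, had 2.61 to 5.02 CPM in Ctrl and 4.01 to 8.02 CPM in DTR. Cdh5, which encodes VE-cadherin, had 0.490, 0.586 and 1.37 CPM in Ctrl and 0.552, 0.257 and 0 CPM in DTR, a log2 fold change of -1.53, so it was at 0 in the library where Tek and Kdr were highest. Emcn, Cldn5 and Tie1 were at or under 0.105 CPM in all libraries. Neutrophil genes (5 listed, none passing the expression filter) reached 4.73 CPM in Ctrl replicate 1 and at most 0.965 CPM in the others, with Ly6g at 0 in all. B cell genes (4 listed) ranged from 15.1 to 44.1 CPM in Ctrl and 35.8 to 71.1 CPM in DTR, nearly all from Jchain, with Ms4a1 at or under 1.30 CPM, and pericyte genes (6 listed) from 18.0 to 34.96 CPM in Ctrl and 14.1 to 14.99 CPM in DTR.

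Gene by gene, the marker lists moved in both directions. No marker had an adjusted p under 0.05 (edgeR's quasi-likelihood F test, lowest 0.602). At an unadjusted p under 0.05, 2 were higher in DTR and 4 lower, where 3.81% of all genes were higher and 4.11% lower. The higher ones, of 5 endothelial genes tested, were Vwf at a log2 fold change of 0.51 and Tek at 1.84. The lower ones were Cspg4 of the pericyte list (4 tested) at -1.02 and Mrc1 of the macrophage list (10 tested) at -0.57. With them were Sox10 of the melanocyte list (10 tested) at -0.28 and Cd3d of the T and NK cell list (11 tested) at -1.23. For these 4, every DTR library was below every Ctrl library, as for 8.18% of all genes. By list, log2 fold changes were below 0 for 4 of 4 tested pericyte genes (median -0.82) and 8 of 10 macrophage genes (-0.21). They were also below 0 for 8 of 10 melanocyte genes (-0.10). They were above 0 for 6 of 7 dendritic cell genes (0.44) and 4 of 5 tested endothelial genes (0.61). The same held for 2 of 2 tested B cell genes (0.70), and for 49.6% of all genes. Some of these genes had few counts, such as Siglech and Clec9a with 2 each in Ctrl replicate 1.

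**Figure D5:**
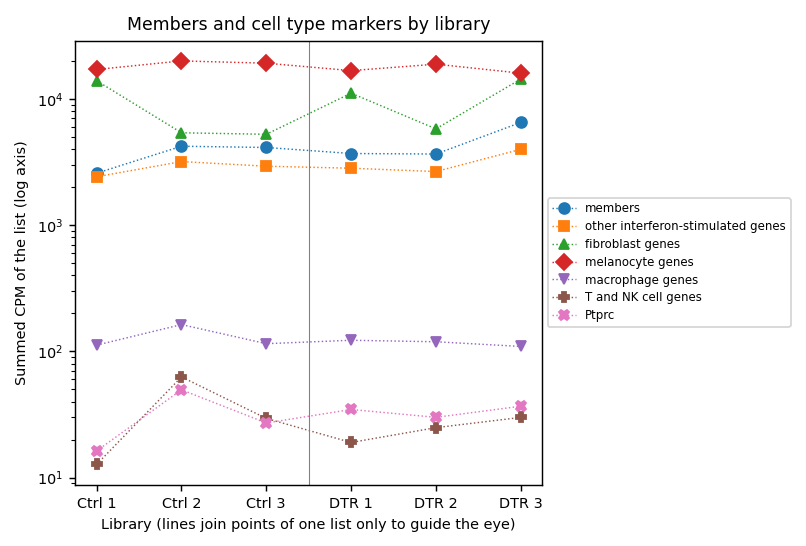
Summed CPM (log axis) of the members, of other interferon-stimulated genes and of marker lists in each of the 6 libraries, with dotted lines that only join the points of a list. Members rise from 2578 CPM in Ctrl replicate 1 to 6500 CPM in DTR replicate 3, the fibroblast sum, mostly of collagen genes, is high in both these libraries although 7 of the 10 fibroblast genes are highest in DTR replicate 3, and T and NK cell genes peak in Ctrl replicate 2.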

How the data were processed

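The authors trimmed reads with cutadapt 3.4, aligned them to GRCm38 with STAR 2.7.3a and counted them per gene with featureCounts 2.0.1 using strand, from stranded total RNA libraries. The deposited raw counts of the 6 libraries were used. Their methods name Ensembl annotation of another release than their data availability text, and the feature type counted is not given in the sources used here. The table's other columns hold normalized counts and the authors' own comparison, and were not used.

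The members and lists were chosen with earlier results of these data known. Genes kept by edgeR's filterByExpr (minimum count 10, minimum total 15) were scaled with TMM and compared with edgeR 4.0.16's quasi-likelihood test in R 4.3.3 (two-sided, no covariates, Benjamini-Hochberg adjustment over 15133 genes, threshold 0.05). Values per library were given for Cxcl9, Cxcl10, every member past an unadjusted p of 0.05 or with separated groups, and the lowest and highest log2 fold change of each role group, with other members added after their values were seen. CPM were not divided by length, so CPM of different genes were set side by side only as shares of a list's sum. The fits were tested on simulated data. Alternatives used RLE factors or library size alone, other filters, robust moderation, adjusted deviances, DESeq2 1.42.0, limma voom (limma 3.58.1), a replicate block, a genomic span offset and left-out libraries. Centring of the span offset and leaving out 2 libraries were decided after seeing the data. Figures used matplotlib 3.10.9. Some genes of the lists are not reported here by name.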

Additional observations from a re-analysis of the deposited data

How the results depend on the processing

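In none of the 18 alternatives did a member reach an adjusted p under 0.05 (lowest 0.264, for Cxcl10 in DESeq2's Wald test). The members at an unadjusted p under 0.05, 1 of 38 in the report, are given here with the share of all genes higher in DTR in the same fit. They numbered 2 with library size alone (4.45%), 5 with all genes of at least 1 count in any library (4.19%), 4 with DESeq2 (2.93%), 3 with DESeq2 and the span offset (2.39%), 0 with robust moderation (3.59%) and 8 with the replicate block (4.26%), all of them higher. With libraries left out they ran from 0 without Ctrl replicate 1 (5.16%) to 5 without DTR replicate 2 (4.5%), all higher, and without DTR replicate 3 there were 2, Mx1 and Usp18, both lower (3% of all genes lower), as were 5 without Ctrl replicate 1 as well (2.93%). The deviations of same-numbered libraries from their group means correlated by 0.114, 0.132 and -0.042, so the numbers were not taken to pair the libraries. Members higher in every DTR library, 1 in the report, ranged from 1 without Ctrl replicate 1, where 12.6% of all genes were separated in this way, to 6 without DTR replicate 2, where 11.5% were, against 6.32% with all 6 libraries. The members' median log2 fold change ranged from -0.17 without Ctrl replicate 1 and DTR replicate 3, a choice made after seeing the data, to 0.42 without DTR replicate 2, and stayed between 0.23 and 0.31 where all 6 libraries were kept.

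Of 324 log2 fold changes of 18 members named by the rule, 291 kept their direction and 33 turned. Cxcl10, Stat2, Herc6, Mx2 and Usp18 kept theirs in all 18, but not their size: without DTR replicate 3 they were at 0.38, 0.21, 0.21, 0.17 and -0.47, and without Ctrl replicate 1 as well at 0.23, 0.06, 0.04, 0.04 and -0.59. Dhx58, near 0 in the report, was at 0.0046 with RLE factors, 0.029 with library size alone, 0.0018 with at least 1 count in any library, 0.018 with the span offset, 0.0049 with DESeq2 and 0.011 with DESeq2 and the offset. With libraries left out, log2 fold changes ran from -0.46 to 0.87 for Cxcl9, from -0.084 to 0.14 for Irf9, from -0.026 to 0.45 for Ifih1, from -0.50 to 0.27 for Dhx58, from -0.32 to 0.041 for Bst2, from -0.12 to 0.19 for Oas1a, from -0.24 to 0.91 for Oas3, from -0.062 to 0.46 for Parp9, from -0.14 to 0.35 for Dtx3l, from -0.27 to 0.42 for Gbp7, from -0.12 to 0.99 for Iigp1, from -0.15 to 0.27 for Ifi35 and from -0.21 to 0.65 for Ifi44. The negative ends came without Ctrl replicate 1 and DTR replicate 3 in each case. The causes were not tested. Counting depth limited no tested member much, since the lowest count of any in a library was 156 (Mx1 in DTR replicate 2), while the spread between 3 libraries a group limits every comparison.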
